A study of Mus musculus with 2 samples.

Results

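The genes encoding condensin and cohesin subunits were compared in regenerating livers of WT and KO mice. The 10 genes were chosen by name, 7 for condensin (Smc2, Smc4, Ncapd2, Ncapd3, Ncapg, Ncapg2 and Ncaph) and 3 for the core of cohesin (Smc1a, Smc3 and Rad21), out of 33224 gene symbols in the table. The choice was made with earlier results of these data known, so shares of these genes set beside all genes are descriptions only. All 10 were found, each as a single locus, and all 10 passed the filter of an average of 0.1 FPKM or more. FPKM counts fragments relative to transcript length and to the size of the library, so levels can be compared between genes. The samples were 1 library of WT liver and 1 library of PPARβ-null (KO) liver from male C57BL/6 mice, labelled as 4 months old (the series text gives a younger age) and kept under the same light cycle with free access to food. Livers of both genotypes were taken 48 hr after partial hepatectomy (PH), the removal of most of the liver. How many mice gave each library is not stated, and no library from an unoperated liver was analysed here. With 1 library per genotype no spread between mice could be measured. Which stretch of Ppard the null allele lacks is not given in the sources used here. Every difference below compares these libraries and no test of genotype was made.

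Condensin and cohesin are ring-shaped complexes built around pairs of SMC (structural maintenance of chromosomes) ATPases, closed by a kleisin subunit and joined by large helical-repeat subunits. Condensin folds chromatin into compact mitotic chromosomes, and its forms I and II share Smc2 and Smc4 but carry their own kleisin and repeat subunits. Cohesin holds sister chromatids together from S phase to anaphase, and it also folds interphase chromatin into loops, so resting cells use it too. Hepatocytes of the adult liver are mostly quiescent and enter the cell cycle again after PH.

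The targeted gene Ppard stood at 2.67 FPKM in WT and 2.42 FPKM in KO, giving a ratio of WT to KO of 1.10 (95% counting interval 0.966 to 1.26), so its summed level over all exons does not show which library carries the null allele. Among genes with 1 exon, the smallest values gathered near 0.0182 FPKM in WT and 0.0179 FPKM in KO for a transcript of 1 kb, taken as the worth of 1 fragment. An FPKM of 1 on 1 kb thus rested on about 54.9 fragments in WT and 55.9 in KO, and the depths were close, with a ratio of 1.02. All intervals below come from fragment numbers estimated in this way with the longest annotated transcript of each gene. They cover counting error only and not the difference between mice. Most genes were somewhat lower in the KO library. The median log2 KO/WT was -0.24 over the 11723 genes averaging 1 FPKM or more, and ratios centred on this median are given where the shift matters. Hepatocyte markers such as Ttr (2503 and 2406 FPKM in WT and KO) and Apoa1 (3061 and 3503 FPKM) were abundant in both libraries, which matched the label of liver. Of the other hepatocyte markers, the urea cycle enzymes Cps1 (1597 and 743 FPKM) and Ass1 (2672 and 983 FPKM) were also abundant but more than 2-fold lower in KO, with WT/KO ratios of 2.15 and 2.72, and Hnf4a stood at 172 and 193 FPKM.

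All 7 condensin genes were more than 2-fold lower in KO, and 5 of them were more than 10-fold lower. Of the cohesin core genes, Rad21 was more than 2-fold lower, whereas Smc3 and Smc1a were lower by less than that. Together, 8 of the 10 genes were past the 2-fold line, against 13.4% of the 15727 genes averaging 0.1 FPKM or more. Being more than 10-fold lower was rarer, at 1.88% of these genes, and all 10 were lower in KO to some degree, as were 74.8% of all these genes. The median log2 KO/WT, with 0.1 FPKM added to each value, was -3.63 over the 7 condensin genes and -0.73 over the 3 cohesin core genes. Over all genes averaging 0.1 FPKM or more the same median was -0.25. Summed over the 7 condensin genes, the level was 55.4 FPKM for WT and 5.20 FPKM for KO, while over the 3 cohesin genes it was 53.4 FPKM for WT and 28.8 FPKM for KO. In KO the cohesin sum was 5.53 times the condensin sum, against 0.964 times in WT. These sums cover 7 and 3 genes and leave out Ncaph2, Stag1 and Stag2, described further on. With Ncaph2 the condensin sum was 81.9 FPKM for WT and 25.8 FPKM for KO, a WT/KO ratio of 3.18, and with Stag1 and Stag2 the cohesin sum was 71.0 FPKM for WT and 42.0 FPKM for KO, a ratio of 1.69. The cohesin sum was then 1.63 times the condensin sum in KO and 0.867 times in WT, so most of the condensin sum left in KO was Ncaph2.

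**Figure D1:**
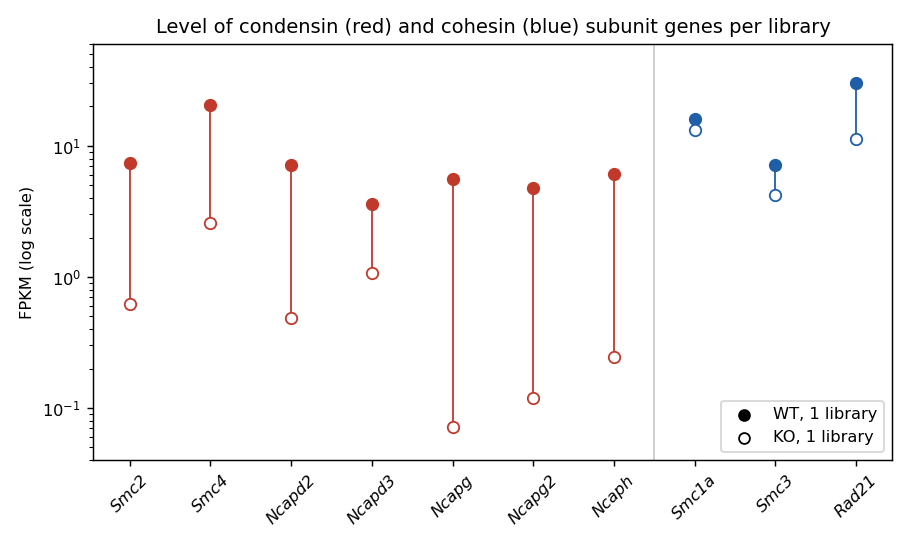
FPKM on a log scale of the 7 condensin genes (red) and the 3 cohesin core genes (blue) in WT (filled) and KO (open), 1 library each with no error bar. The lines join the libraries; the longest is that of Ncapg, from 5.64 in WT to 0.0713 in KO, and the shortest that of Smc1a, from 16.0 to 13.2.

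Smc2 and Smc4 form the ATPase pair that condensin I and II share. Smc4 (chromosome 3, 68808660 to 68838545, plus strand of NCBIM37/mm9) reached 20.7 FPKM in WT and 2.59 FPKM in KO. It was by far the most abundant of the 7 condensin mRNAs in both libraries. Its WT/KO ratio was 8.0 (95% counting interval 7.36 to 8.71). Smc2 (chromosome 4, 52452115 to 52501237, plus strand) was measured at 7.40 FPKM in WT and 0.625 FPKM in KO, a ratio of 11.8 (10.2 to 13.8). The intervals of the pair did not overlap, and Smc4 mRNA exceeded Smc2 mRNA 2.79-fold in WT and 4.13-fold in KO. The microRNA genes Mir15b and Mir16-2 lie within Smc4 and were listed at 0 in both libraries, in a library type that is not made for short RNAs.

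Ncapd2, Ncapg and Ncaph are the subunits particular to condensin I, which reaches the chromosomes after the nuclear envelope breaks down. Ncaph (chromosome 2, 126929545 to 126959690, minus strand), the kleisin that bridges the SMC heads, stood at 6.09 FPKM in WT and 0.247 FPKM in KO. Its ratio was 24.7 (17.8 to 35.4). Ncapd2 (chromosome 6, 125118027 to 125141613, minus strand), a helical-repeat subunit, reached 7.18 FPKM in WT and 0.486 FPKM in KO. Its ratio was 14.8 (12.3 to 17.9), the smallest of the condensin I subunits. Ncapg (chromosome 5, 46061161 to 46091783, plus strand), the other repeat subunit, was measured at 5.64 FPKM in WT and 0.0713 FPKM in KO. These values rest on about 1231 and 15.8 fragments, so the ratio of 79.1 has a wide interval (48 to 137). Only 0.744% of the 15727 genes had a lower KO/WT ratio than Ncapg. Its exons share 942 of 7061 nt with those of Lcorl, which lies on the opposite strand and stood at 3.15 FPKM in WT and 2.17 FPKM in KO. The TruSeq RNA kit named in the labels does not keep the strand, so some of the few fragments of Ncapg in KO can belong to Lcorl.

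Condensin II, whose subunits stay in the nucleus through interphase, did not show 1 common ratio. Ncapg2 (chromosome 12, 117643875 to 117702004, plus strand), a repeat subunit, reached 4.76 FPKM in WT and 0.120 FPKM in KO. With a ratio of 39.6 (29.6 to 55.1) it stood beside its condensin I counterpart Ncapg. Ncapd3 (chromosome 9, 26837760 to 26902896, plus strand), the other repeat subunit, was measured at 3.60 FPKM in WT and 1.07 FPKM in KO, a ratio of 3.37 (2.98 to 3.83). Ncapd3 was thus the lowest of the 10 genes in WT and, among the 7 condensin genes, second only to Smc4 in KO. The kleisin of condensin II, Ncaph2, was not among the 10 genes. It stood at 26.5 FPKM in WT and 20.6 FPKM in KO, a ratio of 1.29 (1.24 to 1.35). Of its exonic sequence, 18.3% is shared with Sco2 on the opposite strand, which reached 10.6 FPKM in WT and 36.2 FPKM in KO, and the part of these reads in the value of Ncaph2 was not tested. Between counterparts, Ncapd2 mRNA was 1.99 times Ncapd3 mRNA in WT and 0.456 times in KO, and Ncapg mRNA was 1.18 times Ncapg2 mRNA in WT and 0.593 times in KO. For both repeat subunits the condensin I mRNA was thus the more abundant in WT and the less abundant in KO, though the KO intervals of Ncapg and Ncapg2 overlapped.

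**Figure D2:**
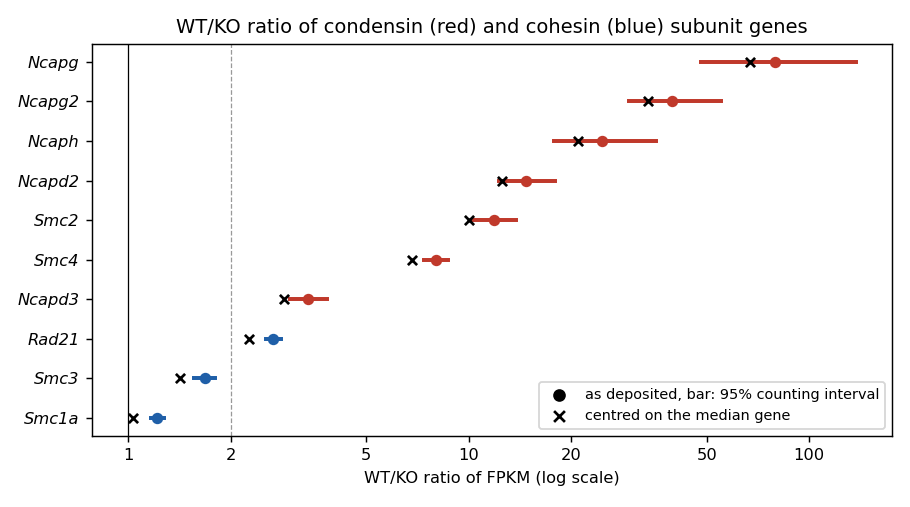
WT/KO ratio of FPKM on a log scale for each gene, ordered by ratio, with the 95% counting interval as a bar (red condensin, blue cohesin) and the ratio after centring on the median gene as a cross. The dashed line marks 2-fold; the 7 condensin genes and Rad21 lie above it with or without centring, and Smc3 and Smc1a below it.

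Rad21 (chromosome 15, 51794151 to 51823306, minus strand), the cohesin kleisin that separase cuts at anaphase, was the most abundant of the 10 mRNAs in WT. It was measured at 30.2 FPKM in WT and 11.3 FPKM in KO, a ratio of 2.67 (2.54 to 2.80). Smc3 (chromosome 19, 53674886 to 53720323, plus strand), the SMC subunit that is acetylated when cohesion is established, was measured at 7.09 FPKM in WT and 4.24 FPKM in KO, a ratio of 1.67 (1.55 to 1.80). Smc1a (chromosome X, 148450971 to 148497237, plus strand), its partner ATPase, stood at 16.0 FPKM in WT and 13.2 FPKM in KO, a ratio of 1.22 (1.16 to 1.27). Thus each cohesin subunit was lower in KO, by amounts that differed beyond counting error. After centring on the median gene the ratio was 2.26 for Rad21, 1.42 for Smc3 and 1.03 for Smc1a, so Smc1a stood where the median gene did. The KO/WT ratio was lower than that of Smc1a in 48.3% of the 15727 genes, and lower than that of Rad21 in 7.53%.

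The order of the levels differed between the libraries. In WT it was Rad21, Smc4, Smc1a, Smc2, Ncapd2, Smc3, Ncaph, Ncapg, Ncapg2 and Ncapd3. The counting intervals of Smc2, Ncapd2 and Smc3 overlapped there, as did those of Ncaph and Ncapg. In KO the order was Smc1a, Rad21, Smc3, Smc4, Ncapd3, Smc2, Ncapd2, Ncaph, Ncapg2 and Ncapg. The 3 cohesin genes came first in KO, and the intervals of Smc2 and Ncapd2 and those of Ncapg2 and Ncapg overlapped. Within the libraries, Smc3 mRNA was 0.958 times Smc2 mRNA in WT and 6.78 times in KO, although these ATPases are counterparts in their complexes.

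**Figure D3:**
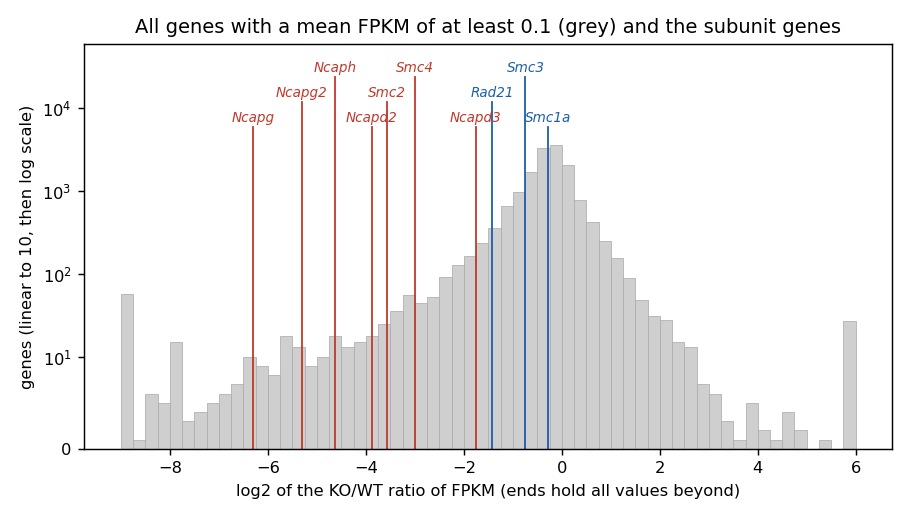
Number of genes (linear up to 10, then log scale) by log2 of the KO/WT ratio of FPKM for the 15727 genes averaging 0.1 FPKM or more, with the 10 subunit genes as lines (red condensin, blue cohesin). Smc1a lies at -0.28 within the bulk of genes, and Ncapg at -6.31 far down the left tail; the end bars collect all values beyond the axis, among them genes listed at 0 in 1 library.

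The 10 genes lie on 10 different chromosomes, and none neighbours another. Their promoters were read from RefSeq on GRCm38.p6, as 250 bases before and 50 bases after each annotated start, for 8 of the 10 genes (not for Smc4 and Rad21). Motifs were searched on both strands: the CHR, bound by the MuvB core of DREAM and MMB complexes in cell cycle genes, as TTTGAA or TTCGAA; the E2F site as TTTGGCGC, TTTCCCGC, TTTGCCGC or TTTCGCGC; and the CCAAT box of NF-Y. None of these forms contains another. A CHR stood in 5 of the 7 windows of the 6 condensin genes and in neither window of Smc1a and Smc3, against 19.2% of all 32851 windows. A CHR was also present where the KO/WT difference was small, in 4 of the 7 windows of the cohesin loading, release and acetylation genes (Mau2, Pds5b, Hdac8 and Ctcf), none of which was more than 2-fold lower, and at position -22 from the start of Ncaph2. It stood in 3 of the 6 windows of the cohesion establishment, protection and cleavage genes, in 5 of 5 of the condensin partners and kinases, a list that holds Ncaph2, and in 2 of 7 of Smc5/6 and Smchd1. Of the windows of the proliferation markers, 2 of 4 held a CHR. A CHR thus stood in windows of genes far lower in KO and of genes with small differences, and a link between CHR and the KO/WT ratio was not tested. An E2F form stood in 3 of the condensin windows (Ncapd2, Ncapg and Ncapg2) and in that of Smc1a, against 2.26% of all windows. It also stood in a window of Stag1, Pds5a and Nsmce1, with WT/KO ratios of 1.39, 1.24 and 1.84, and in that of Cdk1. An E2F form stood in 0 of the 6 windows of the cohesion establishment, protection and cleavage genes. For the proliferation markers it was 0 of 4, and a link between E2F forms and the KO/WT ratio was not tested. The same 3 condensin windows held both a CHR and an E2F form, as did that of Cdk1, against 0.317% of all windows. In Ncapg and Ncapg2 the CHR began 30 and 18 bases before the start, and 2.77% of all windows held a CHR within the last 50 bases before it. Within these 50 bases a CHR also stood in 2 of the 6 windows of the cohesion establishment, protection and cleavage genes. The same held for 3 of the 5 of the condensin partners and kinases, Ncaph2 among them, and for Pds5b (at -32, WT/KO ratio 1.52). A CCAAT box stood in 3 of the 7 condensin windows and in that of Smc1a, against 37.4% of all windows. It stood in 3 of 7 windows of the loading, release and acetylation genes and in 4 of 6 of the cohesion establishment, protection and cleavage genes. The counts were 4 of 5 for the condensin partners and kinases, 2 of 7 for Smc5/6 and Smchd1 and 4 of 4 for the proliferation markers. A link between CCAAT and the KO/WT ratio was not tested. No form of the 3 motifs was found in the windows of Ncaph and Smc3, and in the first window of Ncapd3. The 250 bases before the start are shown for the 3 condensin genes with both motifs and, for contrast, for Smc1a and Smc3. They are given 5′ to 3′ in the direction of the gene, with CHR, E2F and CCAAT forms of either strand in capitals (a CCAAT on the reverse strand reads ATTGG).
Ncapg, chr5:45669675-45669924, plus strand: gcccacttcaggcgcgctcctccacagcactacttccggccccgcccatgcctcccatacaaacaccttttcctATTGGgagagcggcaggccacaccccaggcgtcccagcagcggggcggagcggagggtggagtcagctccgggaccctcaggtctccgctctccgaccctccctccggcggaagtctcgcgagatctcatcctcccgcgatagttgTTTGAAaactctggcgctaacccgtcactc
Ncapg2, chr12:116405186-116405435, plus strand: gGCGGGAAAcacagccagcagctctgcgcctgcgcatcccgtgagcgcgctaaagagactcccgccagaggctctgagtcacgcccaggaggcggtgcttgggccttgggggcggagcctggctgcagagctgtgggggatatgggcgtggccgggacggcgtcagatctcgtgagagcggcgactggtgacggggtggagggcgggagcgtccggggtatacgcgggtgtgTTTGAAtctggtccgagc
Ncapd2, chr6:125191587-125191836, minus strand: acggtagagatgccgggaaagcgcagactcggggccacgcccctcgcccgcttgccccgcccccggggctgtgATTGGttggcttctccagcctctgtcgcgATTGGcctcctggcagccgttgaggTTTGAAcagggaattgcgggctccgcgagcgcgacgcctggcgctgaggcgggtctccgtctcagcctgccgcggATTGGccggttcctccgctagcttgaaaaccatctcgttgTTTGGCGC
Smc1a, chrX:152016178-152016427, plus strand: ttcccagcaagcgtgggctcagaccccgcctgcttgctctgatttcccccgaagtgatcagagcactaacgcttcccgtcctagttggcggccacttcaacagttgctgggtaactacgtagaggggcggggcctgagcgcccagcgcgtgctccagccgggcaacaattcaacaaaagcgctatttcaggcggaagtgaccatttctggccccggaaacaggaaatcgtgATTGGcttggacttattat
Smc3, chr19:53600146-53600395, plus strand: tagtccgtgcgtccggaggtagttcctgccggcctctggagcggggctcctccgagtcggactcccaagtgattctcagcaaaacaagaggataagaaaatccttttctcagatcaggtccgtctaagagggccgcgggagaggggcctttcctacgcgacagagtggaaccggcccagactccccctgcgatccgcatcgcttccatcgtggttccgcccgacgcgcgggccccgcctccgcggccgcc
In these lines the TTTGAA of Ncapg and Ncapg2 lies near the 3′ end, beside the start, and that of Ncapd2 lies 123 bases before the start, while TTTGGCGC closes the line of Ncapd2. The E2F form of Smc1a and those of Ncapg and of the start of Ncapg2 lie in the 50 bases after the start and are not shown. Such matches describe the letters only, and whether a factor bound there was not measured.

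The remaining subunits of cohesin lay between Smc1a and Smc3 in their ratios. Stag1 and Stag2, the repeat subunits of which cohesin carries 1 at a time, had FPKM values of 5.81 and 11.8 in WT and 4.18 and 9.0 in KO. Their ratios were 1.39 (1.3 to 1.49) and 1.32 (1.26 to 1.38). Of the 8 genes for loading, release, acetylation and positioning of cohesin, none was more than 2-fold lower or higher in KO, and the median log2 KO/WT was -0.25, as for all genes. Nipbl, which loads cohesin onto DNA, reached 5.13 FPKM in WT and 4.70 FPKM in KO, and its partner Mau2 had 4.90 and 5.15. Wapal, which releases cohesin, was the most abundant of the 8, with 21.1 in WT and 18.2 in KO. After centring on the median gene, Nipbl and Mau2 stood higher in KO (WT/KO 0.927 and 0.806), and Wapal (0.983) stood where the median gene did within counting error. Pds5b, a regulator bound to the kleisin, had the largest ratio of the group, 1.52 (1.42 to 1.64). Esco1, the acetyltransferase that acts on cohesin throughout the cell cycle, was measured at 5.61 FPKM in WT and 4.66 FPKM in KO. The other genes were Pds5a (ratio 1.24), Ctcf (1.24), which stops cohesin at loop anchors, and Hdac8 (1.19), which removes the acetyl mark.

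In contrast, all 6 genes for establishing, protecting and cutting cohesion were more than 10-fold lower in KO, and their median log2 KO/WT was -3.81. Esco2, the acetyltransferase of S phase, stood at 16.6 FPKM in WT and 0.226 FPKM in KO, a ratio of 73.5 (52.8 to 104). It was the more abundant of the Esco enzymes in WT, and Esco1 was the more abundant in KO. Cdca5 (sororin), which stabilises cohesive cohesin, reached 4.29 FPKM in WT and 0.0431 FPKM in KO, the latter about 4.87 fragments, and a ratio of 99.4 (41.3 to 300.1). Espl1 (separase), the protease that cuts Rad21, had 1.33 in WT and 0.0115 in KO. Its inhibitor Pttg1 (securin) was more abundant, with 19.3 FPKM in WT and 1.21 FPKM in KO, a ratio of 15.9 (13.1 to 19.3). The shugoshins, which shield centromeric cohesin, had FPKM values of 1.64 (Sgol1) and 1.38 (Sgol2) in WT and 0.0359 and 0.0112 in KO. About 3.09 fragments of Sgol2 were left in KO, and 49.7% of its exonic sequence is shared with Kctd18 on the opposite strand, which had 2.37 in WT and 2.25 in KO. The loading and release genes thus all lay within 2-fold, Rad21 of the ring lay past it, and the enzymes and guards that act on cohesin around division had ratios of 15.9 and more.

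**Figure D4:**
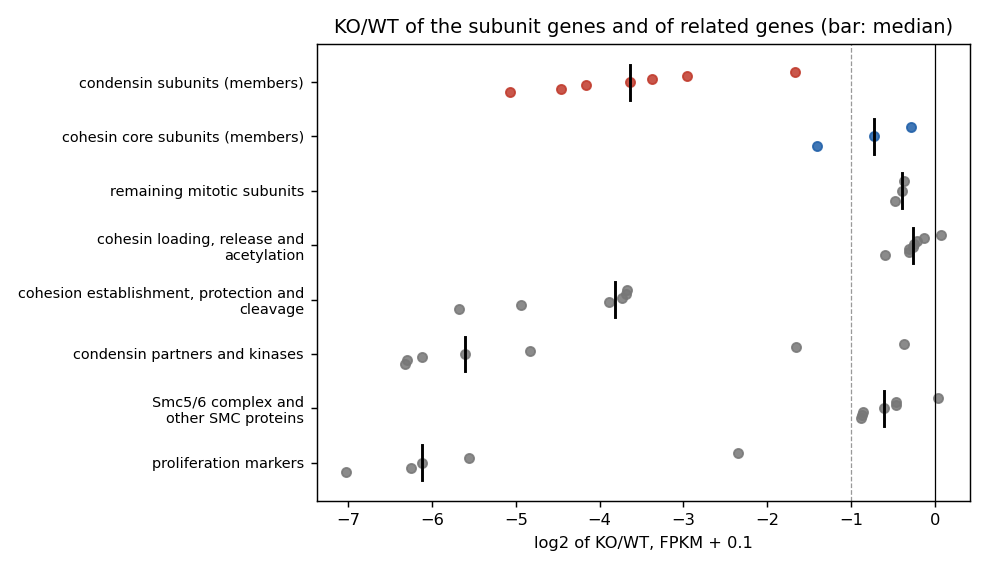
log2 of KO/WT, with 0.1 FPKM added to each value, for every gene of each list except germline cohesin (points) with the list's median (black bar). The dashed line marks a 2-fold lower value in KO. The condensin genes (red) spread from -5.07 to -1.66 and the cohesin core (blue) from -1.41 to -0.28. The cohesion establishment, protection and cleavage genes spread from -5.68 to -3.68. The added 0.1 FPKM understates the change of low genes. With 0.01 FPKM added, the median was -3.86 for the condensin genes and -6.0 for the cohesion establishment, protection and cleavage genes.

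Genes that act with condensin were lower as well, in 6 of 7 cases by more than 2-fold, with Ncaph2 as the exception. Top2a, the topoisomerase that disentangles chromatids during compaction, was measured at 18.7 FPKM in WT and 0.170 FPKM in KO, a ratio of 110 (82.6 to 147), at a locus that also names SNORA32. Kif4, the chromosome-bound kinesin that works with condensin on the chromosome axis, had 3.01 FPKM in WT and 0.00928 FPKM in KO, the latter about 2.58 fragments, with a counting interval of the ratio from 95.1 to 1355. Of the exonic sequence of Kif4, 15.1% is shared with Pdzd11 on the opposite strand, which had 14.8 FPKM in WT and 9.91 FPKM in KO. The kinases Cdk1, Aurkb and Plk1, which phosphorylate condensin in mitosis, had ratios of 96.6, 89.5 and 198. Mcph1, which restrains condensin II in interphase, stood at 2.03 FPKM in WT and 0.574 FPKM in KO. Its ratio of 3.53 (2.95 to 4.28) lay close to that of Ncapd3, with overlapping intervals. Among proliferation markers, Mki67, a coat protein of mitotic chromosomes, reached 10.9 FPKM in WT and 0.0445 FPKM in KO, a ratio of 246 (167 to 381). The ratio was 360 for Ccnb1, 67.2 for Ccna2 and 5.13 for Pcna. Ccna2 shares 14.6% of its exonic sequence with Exosc9 on the opposite strand (10.5 FPKM in WT and 5.79 FPKM in KO). The part of such reads in the values of Kif4 and Ccna2 was not tested. Each of the 7 condensin genes had a smaller ratio than Mki67 or Ccnb1, beyond counting error, and Ncapd3 a smaller one than Pcna.

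The third SMC complex, Smc5/6, which serves DNA repair and replication, did not show differences of this size. None of its 6 genes measured here, nor Smchd1, the SMC-hinge protein of the inactive X chromosome, was more than 2-fold lower or higher, and the median log2 KO/WT of the 7 was -0.61. Smc6 was measured at 6.22 FPKM in WT and 3.40 FPKM in KO, a ratio of 1.83 (1.70 to 1.98), and Smc5 had 6.41 and 4.64, a ratio of 1.38 (1.27 to 1.51). Smchd1 had the largest ratio, 1.87 (1.74 to 2.01), and Ndnl2, with 2.26 in WT and 2.32 in KO, had the smallest. Nsmce1, Nsmce2 and Nsmce4a had ratios of 1.84, 1.38 and 1.53. Germline cohesin was low in both libraries, and only Rec8 of its 4 genes passed the filter of 0.1 FPKM. Rec8, the meiotic kleisin, stood at 0.553 FPKM in WT and 0.154 FPKM in KO, about 66.4 and 18.8 fragments. It was more than 2-fold lower in KO, with a ratio of 3.59 (2.09 to 6.23). Smc1b, Stag3 and Rad21l were below 0.1 in each library, with Rad21l listed at 0 in WT.

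In bulk liver, fewer cells of a type and less RNA per cell cannot be told apart. Marker lists of 5 genes per cell type were therefore summed in each library. The summed level of the marker lists was 1.53-fold higher in WT for macrophages, 1.70-fold for endothelial cells, 1.36-fold for stellate cells and 1.16-fold for cholangiocytes. It was 1.28-fold higher in WT for hepatocytes, 1.13-fold for erythroid cells and 1.87-fold for neutrophils. These ratios are not centred, and centring on the median gene multiplied all KO values by 1.18. Each sum leans on its most abundant genes. The cholangiocyte sum was mostly Spp1 (24.5 FPKM in WT, WT/KO ratio 1.08). The ratio was 3.08 for Krt19, 3.11 for Krt7, 1.64 for Epcam and 1.10 for Sox9. In the erythroid list Hbb-b1 had a ratio of 1.34 and Alas2 one of 0.551. All 5 markers were lower in KO for endothelial cells, stellate cells and cholangiocytes, 4 for macrophages and lymphocytes, 3 for hepatocytes and erythroid cells and 2 for neutrophils. Of the 15727 genes averaging 0.1 FPKM or more, 74.8% were lower in KO to some degree. The 5 lymphocyte markers summed to 0.491 in WT and 0.279 in KO, and of the neutrophil markers Ly6g and Camp were listed at 0 in both libraries. Among all markers averaging 0.1 FPKM or more, the largest WT/KO ratio was 3.11, that of the cholangiocyte keratin Krt7, whereas 6 of the 7 condensin genes had ratios from 8.0 to 79.1. The part of these cells in the condensin values was not tested.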

How the data were processed

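RNA of regenerating WT and KO livers (1 library each) was sequenced on an Illumina HiSeq instrument with 100 bp reads, which the labels call paired end and the methods single end. The authors aligned reads to NCBI37 (mm9) with TopHat (2.0.0), assembled transcripts with Cufflinks (1.3.0) and estimated 1 FPKM per locus with Cuffdiff, and these deposited FPKM values were used. Whether mice were pooled is not given in the sources used here. The deposited table also holds the authors' fold changes, test statistics, p-values and q-values, which were not used.

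Rows were split at commas into symbols and summed per symbol, without the 21 rows marked HIDATA. Ratios are of FPKM as deposited, and log2 values of lists had 0.1 FPKM added, which understates the change of low genes. Genes annotated by GENCODE vM1 on NCBIM37 gave coordinates, transcript lengths and exon overlaps. The worth of 1 fragment was the most frequent value of FPKM times length below 0.07 among single-exon genes of 400 to 4000 nt, where 62 of 267 (WT) and 68 of 275 (KO) genes lay within 15% of it. Some genes lay at smaller values, so fragment numbers are approximate. Intervals are exact conditional (Clopper-Pearson) intervals at 95%. Steps were checked on simulated libraries. No test was run, since there are no replicates. The members, gene lists and motifs were chosen with earlier results of these data known. Named genes were the 10 members, Ppard, every gene of the lists and genes overlapping them. Alternatives covered pseudocount, filter, scaling, row handling and fold. Computation used Python 3.11.15 with scipy 1.17.1, pandas 2.3.3 and numpy 2.4.6, and plots matplotlib 3.10.9.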

Additional observations from a re-analysis of the deposited data

How the results depend on the processing

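With 1 library per genotype no replicate could be left out. No paired analysis was possible because each genotype has a single library. The direction of every member and list median stayed the same under all alternatives run, and 8 of 10 members were past 2-fold under each scaling and row handling, or 9 at more than 1.5-fold. The difference between the condensin and cohesin medians (-2.91) ranged from -3.12 with a pseudocount of 0.01 FPKM to -1.83 with 1 FPKM. With equal upper quartiles the KO/WT ratio left the counting interval for Smc4 (0.144), Ncapd3 (0.342), Smc1a (0.947), Smc3 (0.688) and Rad21 (0.432). Centring on the median gene did so for Smc2 (0.0996), Smc4 (0.147), Ncapd3 (0.349), Smc1a (0.970), Smc3 (0.704) and Rad21 (0.442). Both settings multiply all KO values by 1 factor, which is the cause. The median log2 of Ncaph2, Stag1 and Stag2 (-0.39) moved to -0.19 with equal upper quartiles, -0.16 with centring, -0.36 with equal sums and -0.36 with a pseudocount of 1 FPKM. That of the cohesion establishment, protection and cleavage genes was -1.85 with a pseudocount of 1 FPKM and -6.0 with 0.01 FPKM, and that of the condensin partners and kinases -6.56 with 0.01 FPKM, since their KO values are near 0. At more than 1.5-fold, 1 of the 8 loading and release genes and 4 of the 7 Smc5/6 genes and Smchd1 were lower. The share of all genes more than 2-fold lower in KO was 8.69% among genes averaging 1 FPKM or more, 21.0% with no filter, and 26% were past 1.5-fold. Depth limits Rad21l (about 0.993 fragments in KO and 0 in WT) and Kif4, Sgol2, Espl1 and Cdca5 (fewer than 5 fragments each in KO).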
